A study of Mus musculus with 75 samples.

Results

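RNA-seq of mouse E14 embryonic stem cells lacking the retinoic acid receptor gene Rara (Rara-KO) was compared with that of their wild-type control (WT), both after 24 h of 2 µM retinoic acid (RA). The comparison rests on 4 libraries, Rara-KO replicates 1 and 2 against WT replicates 1 and 2, out of 75 samples in the series, and takes in every gene of the knockout count table. That table also holds cells lacking Rxra (Rxra-KO, n = 2) and cells lacking both receptors (RARX-DKO, n = 2), which lent their spread to the fit. Of 52535 table entries, 16445 had enough counts to be tested. All cells had been taken out of LIF and 2i, the additives that hold stem cells undifferentiated, when RA was added, so levels before RA are not part of the comparison. The labels call the replicates biological but do not say whether a genotype was 1 clone or which bases were deleted, and the p-values measure only the spread between these samples.

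RA is a small vitamin A derivative that enters the nucleus and binds retinoic acid receptors (RARA, RARB, RARG), which sit on DNA as heterodimers with retinoid X receptors (RXRs). Without ligand the pair recruits corepressors, and ligand exchanges these for coactivators. In stem cells RA is known to switch on Hox genes, the receptor gene Rarb and the Cyp26 genes, whose enzymes break RA down again, while genes of the pluripotent state are turned off.

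The classical RAR and RXR site is a direct repeat of a hexamer. The hexamer AGGTCA, its variant AGTTCA, the variant GGGTCA and the variant GGTTCA were searched on both strands, in any combination, with 5 bases between copies (DR5) in the 300 bases around each RefSeq gene start (250 before, 50 after; GRCm38.p6). Of 27025 genes with a promoter in that table, 31 held a DR5 (0.115%), and of 11136 tested genes with one, 5 did (0.0449%): Rarb, Cyp26a1, Blvrb, Syndig1 and Cfap45. Of these 5, the receptor gene and the RA hydroxylase are shown because both are textbook RA targets, with values given further on. Capitals mark the hexamers of the repeat, which read TGAACT on the strand shown for Cyp26a1.
Rarb, chr14:16575427-16575726, minus strand: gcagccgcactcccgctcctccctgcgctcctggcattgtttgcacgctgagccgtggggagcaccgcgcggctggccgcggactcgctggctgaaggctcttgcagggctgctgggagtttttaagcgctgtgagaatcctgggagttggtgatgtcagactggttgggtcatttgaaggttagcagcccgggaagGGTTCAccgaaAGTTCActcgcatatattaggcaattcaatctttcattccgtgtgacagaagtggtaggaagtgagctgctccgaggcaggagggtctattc
Cyp26a1, chr19:37697558-37697857, plus strand: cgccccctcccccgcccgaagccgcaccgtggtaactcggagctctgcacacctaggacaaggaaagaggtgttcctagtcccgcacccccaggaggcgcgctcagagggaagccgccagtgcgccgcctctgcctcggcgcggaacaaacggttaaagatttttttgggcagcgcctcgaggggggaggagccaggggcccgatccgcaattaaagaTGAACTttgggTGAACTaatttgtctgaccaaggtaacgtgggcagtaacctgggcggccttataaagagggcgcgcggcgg

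Library totals ranged from 7408691 to 13052102 counts, with 10824112 and 13052102 in WT and 9262929 and 8731523 in Rara-KO. The pluripotency factor Pou5f1 was at 1440 to 1927 CPM (counts scaled to library size and composition) in the 4 libraries. Of 13 fibroblast markers 5 were tested, and the list summed to 53.0 and 57.3 CPM in WT and 43.6 and 60.4 CPM in Rara-KO. Blood and endothelial markers summed to 158 and 177 CPM in WT and 170.0 and 209 CPM in Rara-KO. Of the genes set as defining for these lists, Dcn and Ptprc had 0 counts in all 4 libraries. Col1a2 had 3 and 2 counts in WT and 0 and 1 in Rara-KO. Values of the defining genes Col1a1 and Pecam1 are not given here. Among the other members, Col3a1 and Hbb-bt had 0 counts in all 4 libraries, while Tal1 had 3 and 6 in WT and 2 and 0 in Rara-KO. The list sums came mostly from the tested members, so these low counts do not show that such cells were absent. The variance between the Rara-KO libraries was 7.74 times that expected from counting, against 10.5 for WT. Rara-KO replicate 2 lay closer to RARX-DKO replicate 1 (4.89 times, the smallest of all 28 pairs of libraries) than to its own partner. Counts without each WT and Rara-KO library, and without RARX-DKO replicate 1, are therefore given beside the main one.

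Rara itself (chromosome 11, 98927818 to 98974942, plus strand, mm10) was at 100.2 and 109 CPM in WT and at 5.35 and 4.37 CPM in Rara-KO. The fall of 4.42 on the log2 scale (standard error, SE, 0.19, adjusted p = 7.25e-08 by edgeR's quasi-likelihood test with Benjamini-Hochberg adjustment) fitted the labels, and a small residue of reads remained in both Rara-KO libraries. Per kilobase of exon, Rarg was the most abundant receptor in both genotypes, at 61.4 CPM per kb in WT and 81.2 in Rara-KO. Rara stood at 23.9 and 1.11, Rxrb at 19.3 and 16.1, Rxra at 7.71 and 8.31, and Rarb at 3.02 and 2.87 CPM per kb in WT and Rara-KO. Of the 6 receptor genes, Rarg and Rxrb were the highest per kilobase in the knockout cells. The rise of Rarg from 259 and 264.5 CPM to 382 and 310.2 CPM did not pass the test (log2 fold change 0.40 ± 0.15 SE, adjusted p = 0.32). Of 18 tested receptors and cofactors, Rara alone passed.

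Across all genes, 106 of 16445 passed an adjusted p of 0.05 (0.645%), 64 higher in Rara-KO (0.389%) and 42 lower (0.255%). The median log2 fold change over all tested genes was -0.0004, and 1805 genes had an unadjusted p under 0.05. By the simpler measure that both Rara-KO libraries lay above both WT libraries, 22.7% of genes were higher, and 24.2% were lower, which is the background for the counts of non-overlapping genes below. The number of calls depended on single libraries: it was 8 without WT replicate 2, 9 without WT replicate 1, 10 without Rara-KO replicate 1, 29 without Rara-KO replicate 2 and 253 without RARX-DKO replicate 1, which only enters through the spread. Calls that held in each of the 4 fits lacking a WT or Rara-KO library numbered 7: Rara, Grb10, Inhbb and the Y-linked genes Eif2s3y, Ddx3y, Uba1y and Uty.

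**Figure D1:**
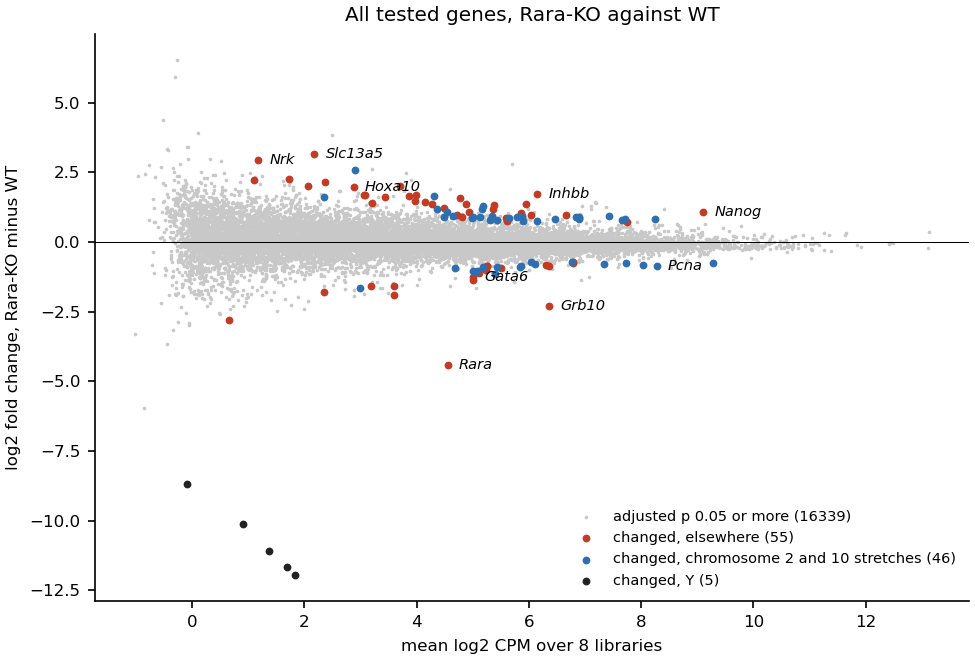
Log2 fold change of Rara-KO against WT (vertical axis) for 16445 genes by their mean log2 CPM over 8 libraries (horizontal axis), with the 106 changed genes coloured by position: 46 in stretches of chromosomes 2 and 10, 5 on the Y chromosome and 55 elsewhere. Among the changed autosomal genes Rara stands alone at -4.42, and the 5 changed Y-linked genes lie below it.

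Position set many of the calls apart. A stretch of chromosome 10 from 20 to 80 Mb (315 tested genes) held 28 genes that rose and 1 that fell, and a stretch of chromosome 2 from 120 to 160 Mb (358 tested genes) held 17 that fell and none that rose. Both limits were set after the values were seen. The stretches gave 2.51% and 2.44% of autosomal counts on chromosome 2 in the WT libraries against 1.93% and 1.94% in Rara-KO, and 1.565% and 1.58% on chromosome 10 against 1.84% and 1.85%. Rxra-KO and RARX-DKO libraries stood with Rara-KO, at 1.85% to 1.93% on chromosome 2 and 1.79% to 1.92% on chromosome 10, so WT was the group that differed. In the separately made overexpression table the vector control V-OE had 1.96% and 1.97% on chromosome 2 and 1.86% and 1.845% on chromosome 10, within or near the range of the knockouts. The 3 WT libraries of the enhancer table (WT-Cyp26) lay between on chromosome 2, at 2.225% to 2.229%, and at 1.76% to 1.78% on chromosome 10. What sets WT apart in these stretches and the absence of Rara cannot be told apart in this comparison.

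**Figure D2:**
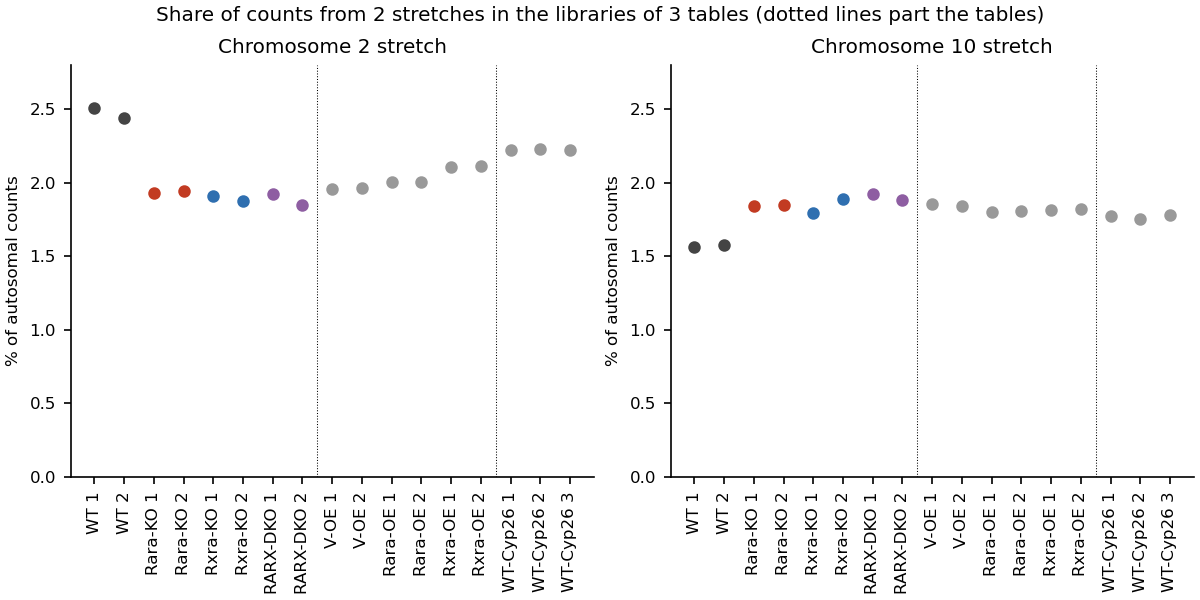
Percent of autosomal counts (vertical axis, from 0) that came from chromosome 2, 120 to 160 Mb, and chromosome 10, 20 to 80 Mb, in the libraries used from 3 count tables (1 point a library). Of the enhancer table only the 3 WT libraries are shown. Both WT libraries of the knockout table stand above all others shown on chromosome 2 and below all others shown on chromosome 10.

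Several abundant genes among the calls lie in these stretches. Pcna, the sliding clamp of DNA replication (chromosome 2), was at 442 and 435 CPM in WT and 266 and 212 CPM in Rara-KO (log2 fold change -0.87, adjusted p = 0.0268). The ribosome assembly factor Eif6 (-0.84), the anaphase-promoting complex subunit Anapc1 (-0.76), the iron-sulphur cluster enzyme Nfs1 (-1.07), the protease inhibitor Cst3 (-1.13) and Flrt3, a membrane protein of FGF signalling (-1.65), fell on chromosome 2. On chromosome 10 the DNA demethylase Tet1 rose from 126 and 113 CPM to 207 and 213 CPM (log2 fold change 0.82, adjusted p = 0.0243). Other rises there were Eif4ebp2, a repressor of translation (0.82), the autoimmune regulator Aire (1.19), the procollagen protease Adamts14 (1.66) and the aromatic amino acid transporter Slc16a10 (1.62). Rps12, a ribosomal protein, was the 1 fall on chromosome 10 (-0.75, adjusted p = 0.0448).

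Of 7 tested genes on the Y chromosome, 5 fell. Eif2s3y was at 62.6 and 44.0 CPM in WT, Ddx3y at 53.7 and 33.9, Uba1y at 26.8 and 32.3, Uty at 15.8 and 14.3 and Zfy1 at 7.00 and 4.15, and each had 0 counts in both Rara-KO libraries. Against a floor of 3 counts over the Rara-KO libraries, Eif2s3y was at least 324-fold lower, Ddx3y at least 265-fold and Zfy1 at least 33.6-fold, counting error only. RARX-DKO libraries likewise had 0 counts of the 5 genes, whereas Rxra-KO had Eif2s3y at 61.0 and 67.6 CPM. Low Y-linked counts were not confined to cells lacking Rara. Summed Y-linked CPM were 168 and 130 in WT and 136 to 149 in WT-Cyp26 of the enhancer table. In the overexpression table they were 0 and 0.204 in the vector control V-OE, 1.81 and 2.05 in Rara-OE and 0.347 and 0.169 in Rxra-OE. Loss of Y-linked transcripts and loss of Rara went together in the 4 libraries compared, so their parts in any other change cannot be told apart.

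Outside both stretches and the Y chromosome, 36 genes rose and 19 fell among 15765 tested. With stretches and Y left out before adjustment, an alternative added after the values were seen, 29 genes passed, 17 higher and 12 lower. The genes below lie outside the stretches unless said otherwise.

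RA-induced genes were mostly lower in Rara-KO, though few passed the test. Of 24 genes known to respond to RA, Gata6 fell and none rose, and the list median was -0.53 against -0.0004 for all genes. Both Rara-KO libraries lay below both WT libraries for 18 of the 24 (background 24.2%) and above for 0 of them. At an unadjusted p under 0.05 there were 9 lower and 0 higher, and DESeq2 called 3 lower, among them Cyp26a1 and Gata6, and 0 higher. Without Rara-KO replicate 1 the median was -0.27, and without Rara-KO replicate 2 it was -0.69, so replicate 1 was the farther from WT.

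The RA hydroxylases were lower in both knockout libraries. Cyp26a1 (chromosome 19) was at 526 and 550.3 CPM in WT and at 141 and 279.5 CPM in Rara-KO, lowest in replicate 1. Its log2 fold change of -1.36 (SE 0.28, adjusted p = 0.0711) missed the threshold. Cyp26a1 passed without Rara-KO replicate 2 (-1.94, adjusted p = 0.0023), by DESeq2 (adjusted p = 2.49e-05), with no filter on low counts (adjusted p = 1.62e-13) and with the replicate number as a block (adjusted p = 0.0199), and over its other settings the adjusted p reached 0.473. Cyp26b1 (chromosome 6) was at 38.6 and 40.2 CPM in WT against 6.21 and 17.9 CPM (log2 fold change -1.71, adjusted p = 0.0711), again lowest in Rara-KO replicate 1. Cyp26b1 passed under those same settings, among them without Rara-KO replicate 2 (adjusted p = 0.0066). Cyp26c1, which lies beside Cyp26a1, was at 13.45 and 14.3 CPM against 4.92 and 8.40 CPM (-1.06, adjusted p = 0.247). For all 3 hydroxylases the groups did not overlap.

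Dhrs3, the retinaldehyde reductase, was at 41.4 and 42.6 CPM in WT against 24.8 and 33.4 CPM (-0.53, adjusted p = 0.386), and Stra6, the retinol uptake receptor, at 37.0 and 36.7 against 27.2 and 30.7 CPM (-0.35, adjusted p = 0.626). Of 11 tested genes for RA synthesis, storage and breakdown none passed by edgeR, 0 were higher and 4 lower at an unadjusted p under 0.05, and DESeq2 called Cyp26a1 and Cyp26b1 lower. Crabp2, a carrier of RA in the cell, was at 10.5 and 8.60 CPM in WT and at 3.74 and 2.62 CPM in Rara-KO (-1.58, adjusted p = 0.401), and it passed with only the 4 libraries compared (adjusted p = 0.0105), with no filter (adjusted p = 0.0044) and without RARX-DKO replicate 1 (adjusted p = 0.0268). The retinal dehydrogenases Aldh1a1 and Aldh1a3 and the retinol esterase Lrat had at most 7 counts in any library and were not tested.

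Some RA targets were near their WT level without Rara. Rarb, with the repeat printed above, was at 15.5 and 16.4 CPM in WT and 11.4 and 18.8 CPM in Rara-KO, so the groups overlapped (-0.08 ± 0.29, adjusted p = 0.954). Stra8, the meiotic gatekeeper known as a direct RA target, was at 419 and 412 CPM in WT against 276 and 516.5 CPM (-0.07, adjusted p = 0.968), which bracketed WT. Cdx1, a caudal homeobox gene, was at 126 and 133 CPM in WT and 118 and 120.1 CPM in Rara-KO (-0.12, adjusted p = 0.847), without overlap. The other tested genes with a DR5, Blvrb (0.14), Syndig1 (-0.17, in the chromosome 2 stretch) and Cfap45 (0.51), had groups that overlapped and did not pass. None of the 52 rises and 32 falls with a promoter in the table held a DR5 in this window (0.0449% of tested genes). Nor did they hold the same repeat with 1 base (DR1, 0.296% of tested genes) or 2 bases (DR2, 0.126%) between hexamers. At such shares hardly any match would fall among this number of genes, so the absence cannot tell whether they are direct targets.

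In the Hoxb cluster, anterior to central identity genes that RA switches on, all 12 tested members had a log2 fold change below 0, with a median of -1.07, and 9 had groups that did not overlap. None passed by edgeR or DESeq2, and 2 were lower at an unadjusted p under 0.05. Hoxb1, the hindbrain gene with a known RA enhancer, was at 16.6 and 16.5 CPM in WT and at 3.21 and 2.95 CPM in Rara-KO. Its drop of 2.42 on the log2 scale had an SE of 0.67 (adjusted p = 0.188), and RARX-DKO replicate 1, with 0 counts of Hoxb1 beside 2.58 CPM in its partner, is among the libraries from which that spread was estimated. Without that library 4 of the 12 Hoxb genes fell, and 7 did when only the 4 libraries compared were fitted.

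In the Hoxa cluster the posterior genes Hoxa9 and Hoxa10 rose and none fell. Of its 12 tested members 7 lay below 0, 4 were higher and 5 lower without overlap, and the median was -0.13. Hoxa10 was at 4.05 and 5.07 CPM in WT and at 13.48 and 22.7 CPM in Rara-KO (log2 fold change 1.98 ± 0.33, adjusted p = 0.022). Hoxa9 was at 3.501 and 3.15 against 10.3 and 19.1 CPM (2.14 ± 0.42, adjusted p = 0.0382). Of the 4 fits lacking a WT or Rara-KO library, the Hoxa10 call held in 1 and the Hoxa9 call in 0. With the replicate block 1 Hoxa gene passed, as did 1 with the stretches and Y left out. Over the settings run the log2 fold change was 1.56 to 2.30 for Hoxa10 and 1.62 to 2.52 for Hoxa9. Hoxa11 and Hoxa13 were at 2.57 and 4.26 CPM and at 1.177 and 1.75 CPM in Rara-KO and under 1 CPM in WT, with adjusted p of 0.0821 and 0.25. Hoxa4 lay the other way, at 20.6 and 15.1 CPM in WT and 6.63 and 10.7 CPM in Rara-KO (-1.04, adjusted p = 0.227), without passing. Neighbouring genes of a cluster may share reads where transcripts overlap, since the counting is not stated to use strand.

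**Figure D3:**
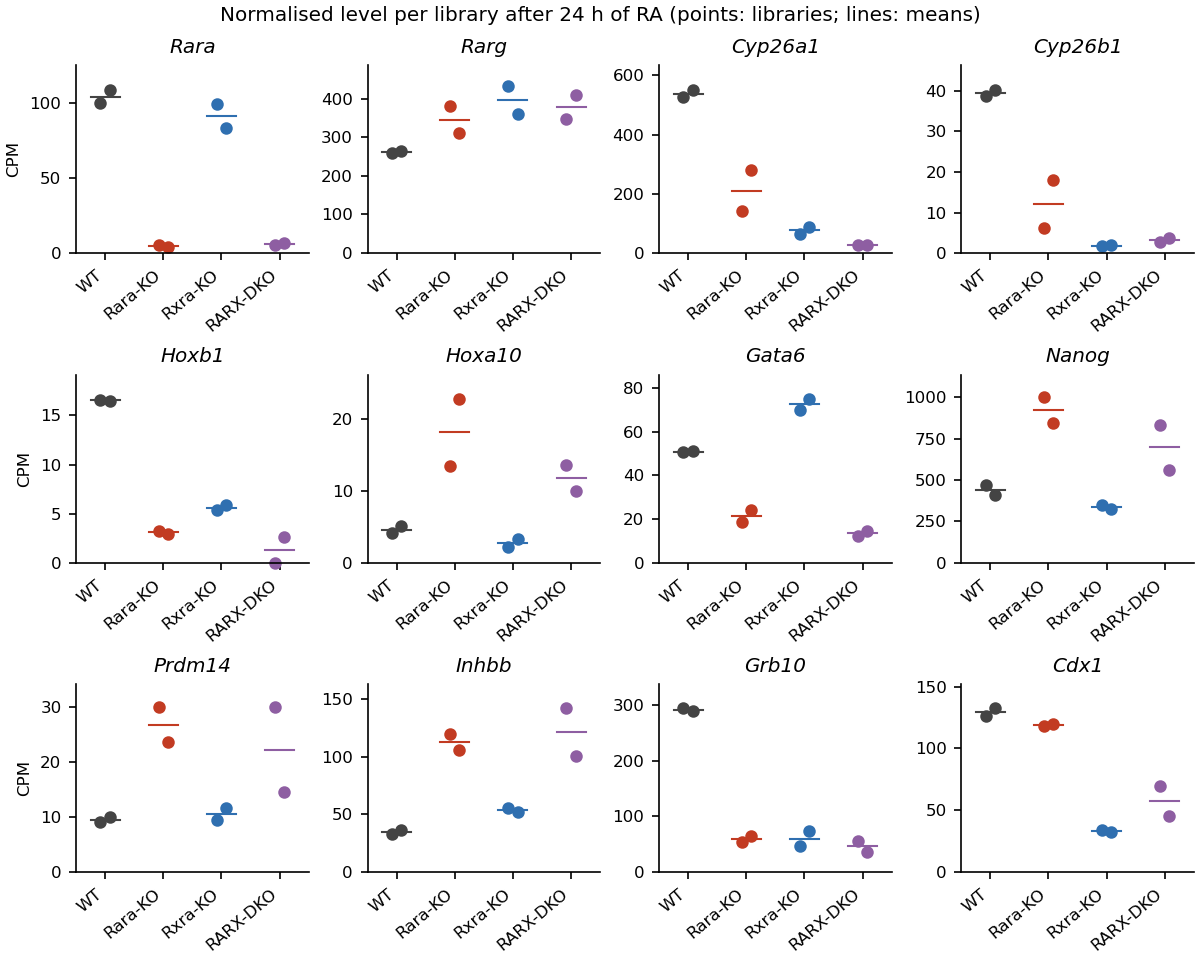
Normalised level (CPM, vertical axes from 0) of 12 genes in each library of the 4 genotypes (points, n = 2; lines, means). Rara-KO lies between WT and RARX-DKO for Cyp26a1, and for Inhbb its points fall within the range of RARX-DKO.

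Of the naive pluripotency genes 3 rose in Rara-KO. Nanog, a core factor of the naive state, was at 469 and 412 CPM in WT and 998.9 and 841 CPM in Rara-KO (log2 fold change 1.06 ± 0.18, adjusted p = 0.022). Prdm14, which guards the naive and germ cell programmes, rose from 9.12 and 9.98 to 30.0 and 23.6 CPM (1.48, adjusted p = 0.0446). Manba, a lysosomal mannosidase in the same list, rose from 134 and 139 to 219 and 226 CPM (0.71, adjusted p = 0.0255). For all 3 genes the Rara-KO libraries stood clear of WT. Manba was also at 224 and 253 CPM in Rxra-KO and 297 and 290 CPM in RARX-DKO, so WT stood apart from every mutant group. In Rxra-KO, Nanog was at 351 and 325 CPM and Prdm14 at 9.50 and 11.6 CPM.

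Of 21 tested naive pluripotency genes these 3 passed and none fell, and 16 had both Rara-KO libraries above both WT libraries (background 22.7%) against 1 below. The list median was 0.38. Zfp42 (Rex1) was at 369 and 372 CPM in WT and 634 and 531.2 CPM in Rara-KO (0.65, adjusted p = 0.0505), Klf4 at 86.1 and 86.2 against 123 and 163 CPM (0.73, adjusted p = 0.296) and Tcl1 at 15.5 and 16.0 against 36.3 and 20.2 CPM (0.84, adjusted p = 0.169). Sox2 was at 240.1 and 193 CPM in WT and 315 and 309.6 CPM (0.53, adjusted p = 0.157). Pou5f1 overlapped between groups (0.21, adjusted p = 0.647). No gene of this list passed with any 1 of the 4 WT and Rara-KO libraries left out, and Nanog alone did with the stretches and Y left out (adjusted p = 0.0366).

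Formative and primed genes went both ways. Foxd3, needed for exit from the naive state, rose from 11.5 and 9.68 to 37.8 and 24.8 CPM (1.56, adjusted p = 0.0277). It was also at 36.1 and 54.8 CPM in Rxra-KO and 46.3 and 30.9 CPM in RARX-DKO, so WT stood apart from every mutant group. Sox3, an early neural and epiblast factor, fell from 19.3 and 19.97 to 5.88 and 7.31 CPM (-1.57, adjusted p = 0.0252). Of 15 tested members 5 were higher and 4 lower without overlap, and the median was 0.10.

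Primitive endoderm genes were mostly lower. Gata6, the transcription factor that specifies primitive endoderm (chromosome 18), was at 50.7 and 51.1 CPM in WT and 18.6 and 24.0 CPM in Rara-KO, with no overlap (log2 fold change -1.25 ± 0.17, adjusted p = 0.00963). Its call held without Rara-KO replicate 2 (adjusted p = 0.0198) and was lost without each of the other 3 (adjusted p up to 0.201). In bulk RNA, fewer cells of a type and less RNA per cell cannot be told apart.

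Gata4, its partner, was at 10.7 and 10.9 CPM against 5.03 and 3.27 CPM (-1.38, adjusted p = 0.0593), and Sox17 at 6.17 and 6.53 against 2.89 and 2.73 CPM (-1.17, adjusted p = 0.178). Foxa2, which lies in the chromosome 2 stretch, was at 2.86 and 1.38 against 0.535 and 0 CPM. The basement membrane genes Lama1 and Lamb1 had log2 fold changes of -0.66 and -0.66. Of 20 tested endoderm genes, 13 were lower without overlap and 3 higher, the median was -0.66, Gata6 passed, and DESeq2 called Gata4, Lama1 and Lamb1 as well.

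**Figure D4:**
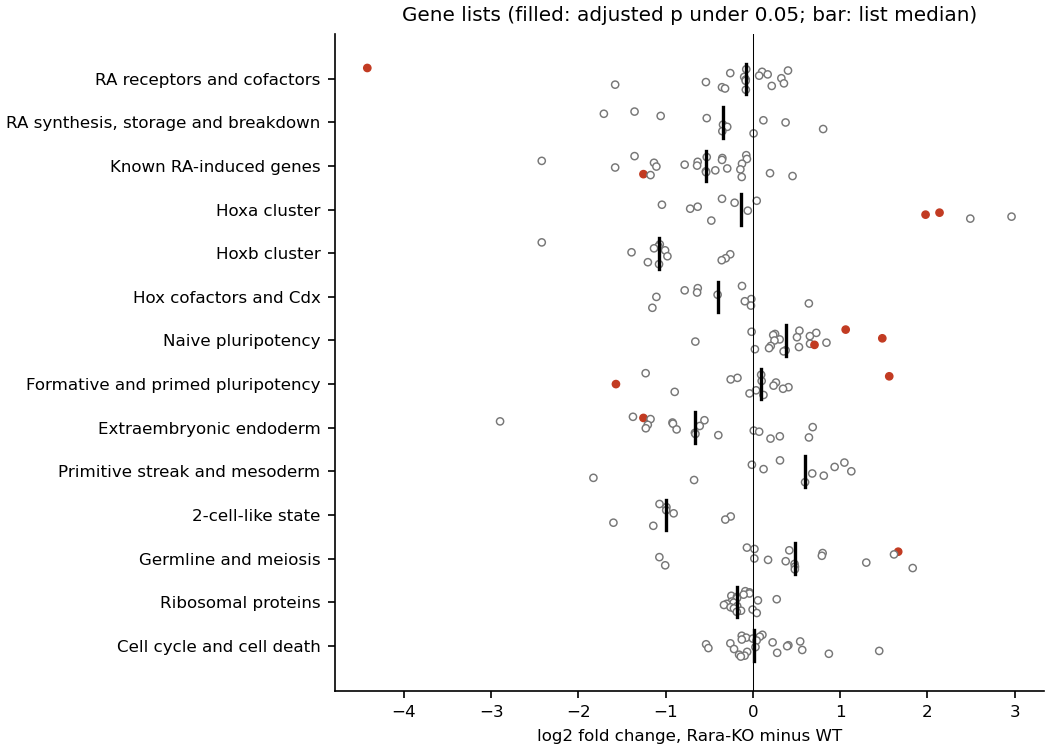
Log2 fold change of Rara-KO against WT (horizontal axis) for the tested members of 14 gene lists (points; filled where the adjusted p was under 0.05), with the list medians as bars. Hoxb, RA-induced and endoderm medians lie at -1.07, -0.53 and -0.66, and the naive median at 0.38.

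Germline and meiosis genes were led by Smc1b, the meiotic cohesin subunit, which rose from 9.03 and 6.53 to 25.9 and 23.4 CPM (1.67 ± 0.28, adjusted p = 0.022). It was the 1 call among 17 tested members, of which 11 were higher without overlap and 2 lower, with a median of 0.48. Hormad1, an axis protein of meiotic chromosomes, was at 11.1 and 3.53 CPM against 22.04 and 29.7 CPM (1.83, adjusted p = 0.184), and Sycp2 at 1.38 and 1.08 against 4.07 and 3.49 CPM (1.62, adjusted p = 0.147). Outside the list, the meiotic histone reader Zcwpw1 rose from 49.0 and 38.5 to 129 and 96.9 CPM (1.37, adjusted p = 0.00963) and Piwil2, of the piRNA pathway, from 37.3 and 38.9 to 63.7 and 76.4 CPM (0.88, adjusted p = 0.0295).

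Among signalling genes, Inhbb was the 1 autosomal rise that held with each WT and Rara-KO library left out. Inhbb, the beta B subunit of activins and inhibins, was at 32.8 and 36.0 CPM in WT and 120 and 106 CPM in Rara-KO (log2 fold change 1.71 ± 0.18, adjusted p = 0.000503), and its adjusted p reached at most 0.0478 over the settings run. None of the other 18 tested Nodal, activin and BMP genes passed by edgeR, while DESeq2 also called Lefty1 lower and Nodal, in the chromosome 10 stretch, higher. Lefty1 was at 19.5 and 25.8 CPM in WT against 5.78 and 6.99 CPM (-1.83, adjusted p = 0.187). Notch4 rose from 14.1 and 17.2 to 42.5 and 37.3 CPM (1.35, adjusted p = 0.0382), 1 of 13 tested Notch genes. Cdh3, P-cadherin, rose from 5.07 and 5.30 to 24.5 and 17.8 CPM (2.03 ± 0.33, adjusted p = 0.022), 1 of 20 cadherin and epithelial genes.

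Grb10, an imprinted adaptor that restrains insulin and IGF receptor signalling (chromosome 11, 11930508 to 12038683, minus strand), had the largest fall after Rara among autosomal genes that passed with a mean log2 CPM of 1 or more. Grb10 was at 293 and 288 CPM in WT and 53.3 and 64.4 CPM in Rara-KO (-2.30 ± 0.23, adjusted p = 0.000951). Grb10 was also at 47.1 and 73.3 CPM in Rxra-KO and 56.2 and 36.7 CPM in RARX-DKO, so WT stood apart from all 3 mutant groups, as in the stretches. The other 23 tested imprinted genes did not pass. H19 was at 10.2 and 12.9 CPM in WT against 81.7 and 81.5 CPM (2.81 ± 0.87, adjusted p = 0.363), a wide SE estimated over all 4 genotypes. DESeq2 called H19 higher and Igf2 (log2 fold change -1.43 by edgeR) lower.

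Among the remaining large rises were Slc13a5, a citrate transporter, from 1.66 and 1.15 to 11.1 and 13.97 CPM (3.16, adjusted p = 0.0201), and the kinase gene Nrk, from 0.461 and 0.845 to 5.46 and 4.803 CPM (2.93, adjusted p = 0.022). Trp53tg5 (2.24), the coactivator Cited4 (1.70), the potassium channel Kcnh7 (1.67) and the calcium channel Ryr3 also rose. Falls included Pgam2, the muscle phosphoglycerate mutase, from 25.6 and 30.5 to 5.24 and 9.93 CPM (-1.89, adjusted p = 0.022), and Tmem229b, from 59.5 and 70.3 to 22.6 and 27.8 CPM (-1.36, adjusted p = 0.00515). The matrix protein Tgfbi (-1.58), the drug efflux pump Abcb1a (-1.13), the neural surface protein Prtg (-1.05), the collagen receptor Mrc2 (-0.997) and the sulphate transporter Slc26a2 (-0.92) fell too.

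Lists of core metabolism and growth genes held no call, though Rps12, Pcna and Anapc1, which are not on them, fell as given above. In 8 lists (Wnt, FGF and ERK feedback, cell cycle and death, metallothioneins and NRF2, glycolysis and hypoxia, cholesterol synthesis, ATF4 targets, ribosomal proteins) edgeR passed 0 of 153 tested members, 11 were higher and 14 lower at an unadjusted p under 0.05, and DESeq2 called 2, Fgfr2 (lower) and Ddit4 (higher, in the chromosome 10 stretch). Their medians ran from -0.18 for ribosomal proteins to 0.04 for glycolysis. Of 20 tested ribosomal protein genes, 12 were lower without overlap and 2 higher (background 24.2% and 22.7%). The other lists had 3 to 7 members lower without overlap and 1 to 7 higher. Over all 16445 tested genes edgeR passed 0.645%, and 1805 had an unadjusted p under 0.05. At that share few calls would fall in lists of this size, so their absence does not show that these genes were unchanged. Trophectoderm, 2-cell-like and Hoxc and Hoxd genes also held no call by either tool and 0 members at an unadjusted p under 0.05. The 2-cell-like median was -0.99, with 7 of 8 members below WT in both libraries and copies of near-identical sequence among them.

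Set directly against the other receptor knockout, Rara-KO differed from Rxra-KO at 885 genes (5.38%), 525 of them higher in Rara-KO. Y-linked transcripts also set these knockouts apart: they summed to 170 and 160 CPM for Rxra-KO, against 0 for each Rara-KO library. From 160 to 200 Mb on chromosome 2 (234 tested genes), median log2 deviations ran lower for Rxra-KO (-0.234, -0.196) than for Rara-KO (0.121, 0.0925). Leaving out Y and the stretches named earlier, but not this region, gave 838 genes. How many calls follow such differences between lines was not tested. Several RA targets were higher without Rara than without Rxra. Cdx1, at 34.4 and 32.1 CPM in Rxra-KO, was higher in Rara-KO by 1.84 on the log2 scale (adjusted p = 0.000249). Cyp26a1 was higher by 1.45 (adjusted p = 0.0204), Cyp26b1 by 2.73 (adjusted p = 0.00921) and Zfp703 by 3.18 (adjusted p = 0.00731). Of 24 RA-induced genes 7 were higher in Rara-KO and 3 lower, the latter being Gata6, Sox17 and Meis2.

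Endoderm genes separated the 2 knockouts the other way. Gata6 was at 70.1 and 75.2 CPM in Rxra-KO, so Rara-KO was lower by -1.77 on the log2 scale (adjusted p = 0.000245), and Gata4 (-1.97), Sox17 (-2.20) and Pdgfra (-1.81) were lower too. In all, 11 of 20 tested endoderm genes were lower in Rara-KO than in Rxra-KO and 0 higher. Nanog was higher in Rara-KO by 1.44 (adjusted p = 0.00127) and Prdm14 by 1.34 (adjusted p = 0.0247). Of 15 metallothionein and NRF2 genes, whose median against WT was -0.02, 9 were lower in Rara-KO than in Rxra-KO. The count of 885 was 111 without Rara-KO replicate 2, 478 without Rara-KO replicate 1, 648 without Rxra-KO replicate 1, 415 without Rxra-KO replicate 2 and 1391 without RARX-DKO replicate 1.

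Against RARX-DKO only 2 genes passed (0.0122%), both higher in Rara-KO, beside 563 at an unadjusted p under 0.05 and 19 by DESeq2. They were Cyp26a1, at 25.7 and 27.3 CPM in RARX-DKO (higher in Rara-KO by 2.99 ± 0.30, adjusted p = 0.0222), and Pmp22, a myelin protein gene, at 2.50 and 1.90 CPM in RARX-DKO and 14.4 and 21.0 CPM in Rara-KO (2.99 ± 0.33, adjusted p = 0.00655). With 64.6 and 89.6 CPM in Rxra-KO, Cyp26a1 was highest in WT, then Rara-KO, then Rxra-KO, and lowest in RARX-DKO, with no overlap between neighbours. The difference between Rara-KO and WT did not pass, and that between Rxra-KO and RARX-DKO was not tested. The count was 47 without RARX-DKO replicate 1, 8 without RARX-DKO replicate 2, 3 without Rara-KO replicate 1 and 5 without Rara-KO replicate 2. Of the 106 genes changed against WT, 0 differed from RARX-DKO by edgeR, 16 did at an unadjusted p under 0.05 and 2 by DESeq2. Outside the stretches and Y, 36 of 55 of them differed from Rxra-KO. Those counts reuse the Rara-KO libraries that chose the genes.

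The overexpression table shares no library with this comparison and gives each gene's value when Rara is raised. Rara was 1.05 higher on the log2 scale in Rara-OE than in the vector control V-OE. Of the 101 changed genes tested there, 69 (68.3%) had the opposite sign in Rara-OE, against 50.2% of all 15976 genes tested in both tables. Rara itself is 1 of the 69, by design of both experiments. Outside the stretches, 28 of 36 rises were lower in Rara-OE and 14 of 19 falls were higher. Within the stretches it was 19 of 28 and 8 of 18.

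By gene, Gata6 was 2.25 higher and Pgam2 3.46 higher in Rara-OE, and both were lower in Rara-KO than in WT. Prtg was 1.31 and Mrc2 1.01 higher. Notch4 was lower in Rara-OE by -2.39, Manba by -2.03, Inhbb by -1.597 and Smc1b by -1.03. Cyp26a1 was at 184 and 186 CPM in V-OE and 529 and 541.4 CPM in Rara-OE. Nanog was at -0.23 and Grb10 at 0.42, and Sox3 (-0.81) was below its control in both tables. For every gene named in this paragraph, V-OE lay nearer to Rara-KO than to WT, although V-OE had Rara at 51.6 and 52.4 CPM. In V-OE, Gata6 was at 22.6 and 23.7 CPM, Nanog at 1226 and 1156, Inhbb at 173 and 169 and Grb10 at 28.0 and 28.8. CPM were scaled within each table, and what sets WT apart from V-OE was not tested.

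**Figure D5:**
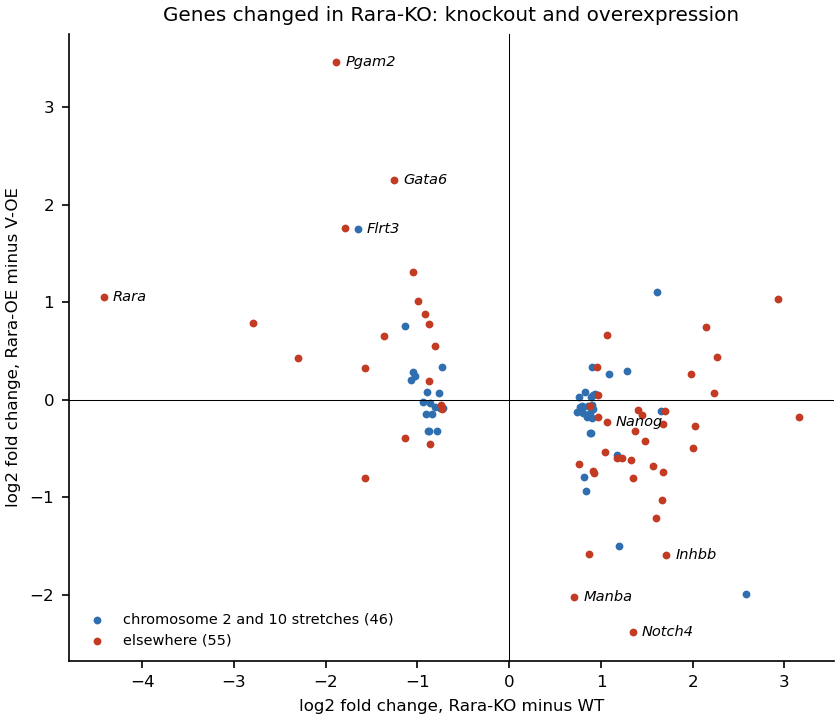
Log2 fold change in Rara-OE against V-OE (vertical axis) by that in Rara-KO against WT (horizontal axis) for the 101 changed genes tested in both tables, coloured by position. Of these, 69 lie in the upper left or lower right, where the signs are opposite.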

How the data were processed

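Whole-number counts per gene were deposited by the authors. Per the submitters' processing notes, the build was mm10, and the tools named include HTSeq 0.9.1, HISAT2 2.1.0 and DESeq2 1.18.1. Strand is not stated. Names of 26 entries read as dates and were kept. All 8 libraries were fitted in edgeR 4.0.16 (R 4.3.3), after filterByExpr (minimum count 10) and TMM scaling, by the quasi-likelihood test with robust options, checked on simulated data. Calls had a Benjamini-Hochberg adjusted p under 0.05. Log2 CPM used a prior count of 2, and SE is the size of the log2 fold change divided by root F. Bounds use a floor of 3 counts. Positions are from GENCODE vM21; 453 tested genes had none. Promoters are RefSeq GRCm38.p6. Replicate numbers were not treated as pairs. The genes, lists and stretches were chosen with earlier results of these data known.

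Alternatives were 2 groups alone in the fit, DESeq2 1.42.0, other scalings and filters, a replicate block, left-out libraries and chromosomes, and 2-fold changes only. Named were fixed RA, pluripotency and endoderm genes, list members that passed or (up to 3 a list) came nearest in fold, and passing non-overlapping genes of mean log2 CPM 1 or more: the 12 largest rises and falls, the 8 smallest adjusted p, the 8 highest levels and up to 5 a chromosome. Not every gene so named is printed. Of the enhancer data, 6 columns could not be matched surely to samples and were not used. ChIP-seq and 4C-seq samples were not analysed here. Results for some list members are not reported here.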

Additional observations from a re-analysis of the deposited data

How the results depend on the processing

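Fold changes kept their sign for every named gene that passed, under all settings run, while counts of calls moved. For Rara-KO against WT (106 genes, 64 higher and 42 lower) the counts were 588 (361 and 227) with the 2 groups alone in the fit, 269 (157 and 112) by DESeq2, 551 (337 and 214) with no filter, 28 (16 and 12) with chromosomes 2, 6, 8, 10, 16 and Y left out, 29 (17 and 12) with the chromosome 2 and 10 stretches and Y left out, and 55 (34 and 21) for 2-fold changes only. With 1 of the WT or Rara-KO libraries or RARX-DKO replicate 1 left out they ran from 8 to 253, with 2 to 137 higher and 6 to 116 lower; a lone library was assumed to vary like the other groups. Rara-KO against Rxra-KO (885) gave 1840 with no filter and 585 at 2-fold, and 111 to 1391 with 1 library left out. Rara-KO against RARX-DKO (2) gave 19 by DESeq2, 1 by library totals, 58 with no filter, 0 with the 2 groups alone in edgeR (462 at an unadjusted p under 0.05), and 3 to 47 with 1 library left out. The cause of these shifts was not tested.

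The replicate block gave 86 genes (46 higher, 40 lower) for Rara-KO against WT, 737 and 2 for the other comparisons. Same-numbered replicates did not deviate together (correlations of -0.33 to 0.17). The labels do not say whether a number marks a shared culture or day, and these correlations cannot decide it. With 2 libraries a group, differences under about the replicate spread were not detectable, and genes under the count minimum were not tested.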
